A study of Mus musculus with 4 samples.

Results

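Loss of Gcn5 (Kat2a), which acetylates histones as a subunit of SAGA and ATAC, was examined here through 38 genes of the p53 pathway and of apoptosis in mouse embryonic stem cells. The 38 genes, taken by symbol, were p53 with its regulators and targets, the Bcl2 family, death receptors, caspases and their inhibitors. The list of these genes was fixed with earlier results of these data known. All 38 were among the 23259 genes listed in the 4 libraries. KO clones were compared with WT clones in each of 2 founder lines, 6 and 4, as the clone names give them, and the founder lines were compared with each other. Both founder lines came from blastocysts of Gcn5 flox/flox mice and had a normal male karyotype per the labels, and both received, by transient transfection, EGFP-Cre under the EF1α promoter. After a sort at 72 hours, 1 KO clone per line, with exons 3 to 18 of Gcn5 excised, was picked from the GFP-positive cells, and 1 WT clone per line, with both floxed alleles intact, from the GFP-negative cells. KO is therefore 6C4 and 4C2, WT is 6-1 and 4-1, each is a single clone grown from a sorted population, and every library comes from 1 clone. The medium held 1000 U/mL LIF and 15% serum. The clones grew on mitomycin-treated mouse fibroblasts as feeders. Mitomycin damages DNA, and the labels name it for the feeders. They name no such agent for the clones. The effect of the treated feeders on the values was not tested. Every KO clone came from GFP-positive cells and every WT clone from GFP-negative cells. Genotype and the sorted fraction therefore cannot be told apart.

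p53 (Trp53) is a transcription factor that is held low by the ubiquitin ligase Mdm2 and its partner Mdm4, and that raises genes of growth arrest, repair and cell death when DNA is damaged. Cell death through mitochondria is set by the Bcl2 family: BH3-only proteins bind the guardians Bcl2, Bcl2l1 (Bcl-xL) and Mcl1 and free the pore formers Bax and Bak1, after which cytochrome c joins Apaf1 and caspase 9. Mouse embryonic stem cells are known for abundant p53 and for a readiness to die after DNA damage, and mouse embryos without Gcn5 are known to die with increased apoptosis that loss of p53 delays.

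The p53 protein binds pairs of a decamer, and these are shown because they are the DNA feature that the target genes of the list are known for. The RefSeq promoter table (build GRCm38.p6, 250 bases before to 50 after a start site) held 31 of the 38 genes. An exact match to the p53 decamer, searched by its published degenerate form on both strands, which read alike, was present in 8.36% of all 32851 promoters. Counted by gene, 9.55% of 27025 genes and 10 of the 31 members held one, namely Aen, Bax, Birc5, Ccng1, Cdkn1a, Ei24, Mdm2, Polk, Sesn1 and Trp53. A match is a description of the sequence and not evidence of binding. Bik, Perp, Pmaip1, Rrm2b, Tnfrsf10b, Trp53inp1 and Zmat3 had no entry. Below are stretches of 100 bases from the promoters of the main feedback inhibitor of p53, of its growth arrest targets and of a pore former, with the exact decamer matches in capitals.
Mdm2, chr10:117710890-117710989, minus strand: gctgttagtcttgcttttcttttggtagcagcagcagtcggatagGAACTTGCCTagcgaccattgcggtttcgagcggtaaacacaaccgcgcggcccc
Cdkn1a, chr17:29090872-29090971, plus strand: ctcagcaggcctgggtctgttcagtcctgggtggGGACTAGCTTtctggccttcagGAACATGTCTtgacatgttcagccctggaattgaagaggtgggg
Ccng1, chr11:40755417-40755516, minus strand: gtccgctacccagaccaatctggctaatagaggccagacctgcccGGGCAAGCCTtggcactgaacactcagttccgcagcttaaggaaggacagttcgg
Bax, chr7:45467045-45467144, minus strand: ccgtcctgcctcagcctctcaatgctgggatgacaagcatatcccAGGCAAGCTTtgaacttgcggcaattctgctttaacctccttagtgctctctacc
The Cdkn1a stretch held 2 matches and each of the other stretches held 1.

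RNA was measured by sequencing of total RNA after ribosomal RNA removal, with 1 value of spike-in normalized FPKM per gene and library. FPKM is a read density per gene length, so that levels may be compared between genes, but the depth behind the values is unknown and no counting interval is given. Between 11562 and 12174 genes reached 1 FPKM in a library. Kat2a stood at 11.5 FPKM in both KO clones, against 34.4 and 38.7 FPKM in the WT clones of lines 6 and 4, and passed the test over all genes (log2 difference -1.58, SE 0.23, limma adjusted p = 0.0112). With either KO library left out, 0 genes passed. Most genes were listed at lower FPKM in KO within each line: the median log2 difference over the 11932 tested genes was -0.19 in line 6 and -0.44 in line 4, and differences are therefore also given relative to that median gene. Of the 8 stem cell markers, all tested, Pou5f1 stood between 454 and 782 FPKM. Their median log2 difference KO minus WT was -0.45, beside -0.32 for all tested genes. Utf1 was the only marker for which KO exceeded the median tested gene, and it did so in both lines. Between the lines, 6 of the 8 were lower in line 6, with a median log2 difference of -0.23. Pou5f1 and Utf1 were higher in line 6, at 0.31 and 0.25. The part of the stem cell markers in the comparisons below was not tested. None of the 15 feeder fibroblast markers was under 0.1 FPKM in all libraries, and their summed level was 140 and 148 FPKM in the KO clones of lines 6 and 4, against 103 and 195 FPKM in the WT clones of lines 6 and 4. Summed markers of extraembryonic endoderm stood at 11.1 and 14.3 FPKM in the KO and WT clones of line 6, against 4.77 and 8.03 FPKM in those of line 4. Of the 4 tested, 0 were lower in line 6, with a median log2 difference of 0.66 between the lines. Their part in the line comparison below was not tested. Summed markers of trophoblast lay between 18.6 and 28.9 FPKM and those of blood cells between 10.5 and 16.7 FPKM. The leukocyte marker Ptprc and the trophoblast factor Elf5 were under 0.1 FPKM in every library. In such bulk libraries, fewer cells of a type and less RNA per cell cannot be told apart.

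The p53 pathway was well represented in these cells, and the members spanned a wide range of levels. By mean FPKM over the 4 libraries, the guardian Mcl1 (140 FPKM), the pore former Bax (117 FPKM) and Trp53 itself (69.2 FPKM) led the list, followed by Ccng1, Cycs and Mdm2 at 54.1, 48.9 and 48.7 FPKM. Bcl2, Fas and Casp8 averaged 0.222, 0.497 and 0.962 FPKM. These 3 genes fell under the filter of a mean of 1 FPKM, and the other 35 members were tested. Casp8, the initiator caspase of the death receptors, stood at 1.49 and 0.544 FPKM in the KO clones of lines 6 and 4, against 1.05 and 0.762 FPKM in the WT clones of lines 6 and 4. Fas, a death receptor, stood at 0.679 and 0.361 FPKM in the KO clones of lines 6 and 4, against 0.408 and 0.541 FPKM in the WT clones of lines 6 and 4. Bcl2 stood at 0.196 and 0.244 FPKM in KO, against 0.193 and 0.255 FPKM in WT. KO and WT overlapped for all 3.

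**Figure D1:**
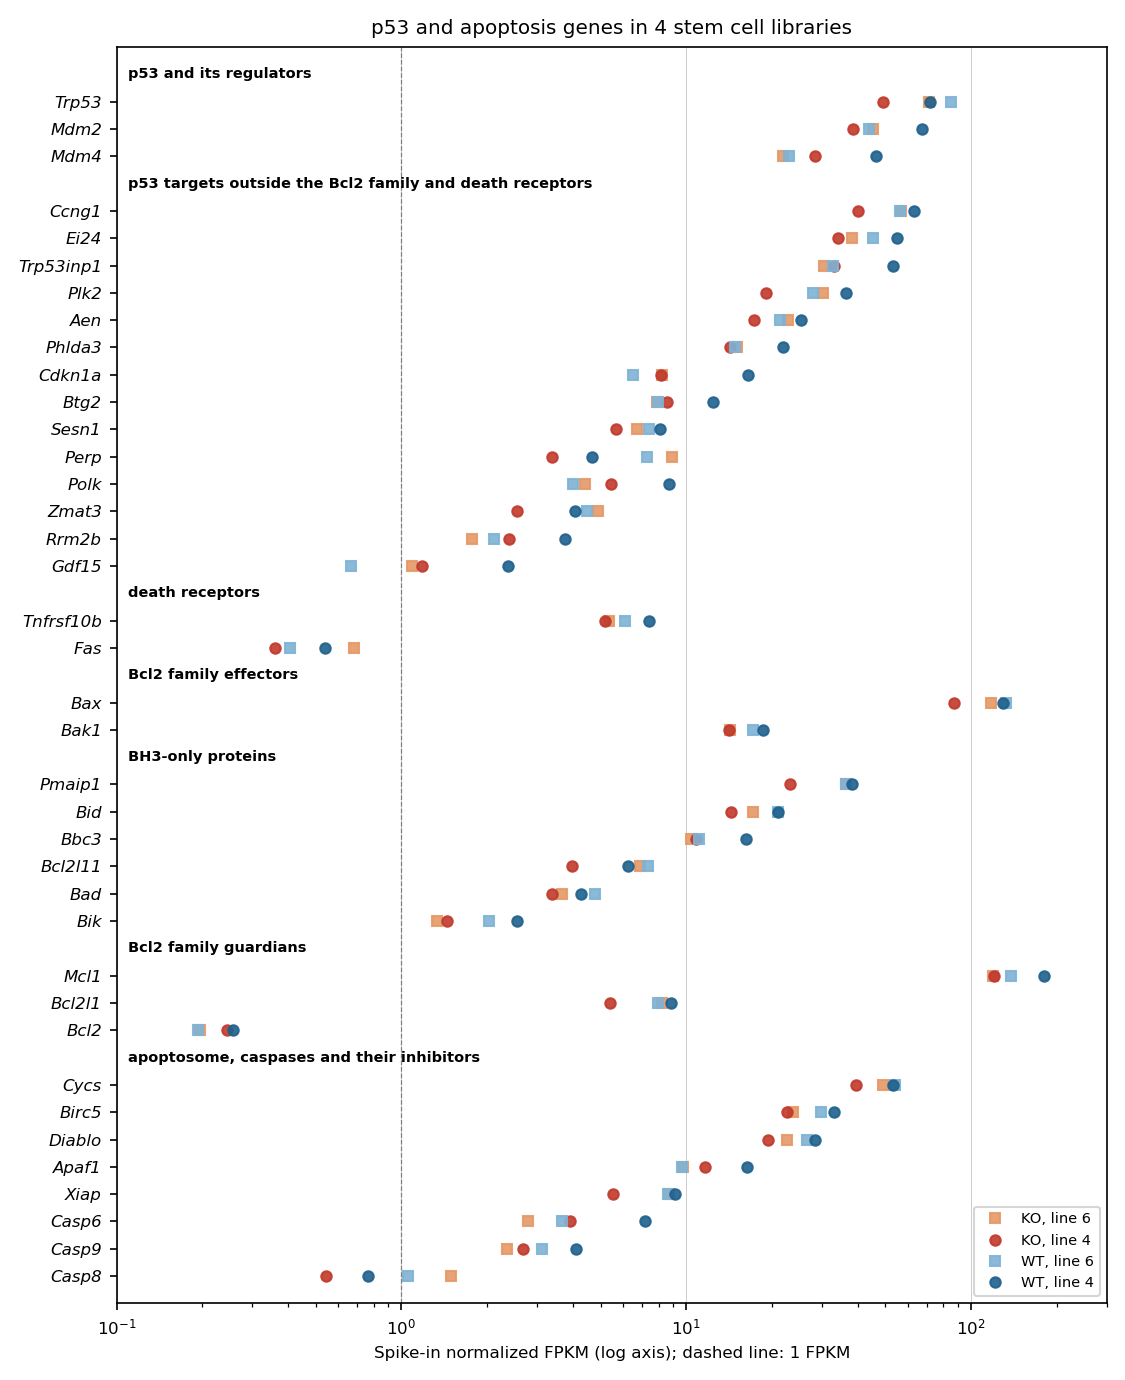
Spike-in normalized FPKM (log axis) of the 38 genes in the KO and WT clones of lines 6 (squares) and 4 (circles), 1 point per library, grouped by role and ordered by mean level. Mcl1 and Bax lie near or above 100 FPKM, whereas Bcl2 and Fas lie under 1 FPKM in every library, and the WT clone of line 4 is the highest point for most genes.

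No member of the list passed the test between KO and WT, and with all 4 libraries the median member lay where the median gene lay. Of 35 tested members, 0 passed limma's test over all genes (adjusted p of 0.445 to 0.884), against 0.0168% of all tested genes (2 of 11932), and 0 had an unadjusted p under 0.05, against 5.54% of all. The median log2 difference of the members was -0.32, beside -0.32 for all tested genes, and the members ran from -0.52 (Casp6) to -0.059 (Perp). Without the WT clone of line 6 the medians were -0.50 for the members and -0.39 for all tested genes. KO lay below WT in all libraries for 15 members, or 42.9%, against 59.8% of all tested genes. KO lay above WT in all libraries for 0 members, against 0.268%. With the founder line as a block, 0 members passed, against 0.796% of all genes. The SE and adjusted p printed per gene between KO and WT are from the fit without this block, which leaves the pairing by line aside. With the block, Trp53 for example had an SE of 0.20 and a limma adjusted p = 0.249.

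Of p53 and its inhibitors, Trp53 narrowly had no overlap between KO and WT, while Mdm2 and Mdm4 overlapped. Trp53 stood at 71.1 and 48.9 FPKM in the KO clones of lines 6 and 4, against 85.0 and 71.9 FPKM in the WT clones of lines 6 and 4. The KO clone was thus lower in each line, by ratios of 0.836 in line 6 and 0.680 in line 4, and the mean was 60.0 ± 15.7 FPKM in KO and 78.5 ± 9.28 FPKM in WT (SD, n = 2 each). Relative to the median gene Trp53 lay at -0.070 in line 6 and -0.10 in line 4 (log2 difference over all libraries -0.40, SE 0.23, limma adjusted p = 0.445). Mdm2, the ubiquitin ligase for p53 and itself a p53 target, stood at 45.1 and 38.5 FPKM in the KO clones of lines 6 and 4, against 43.8 and 67.2 FPKM in the WT clones of lines 6 and 4. The WT clone of line 4 was the high library, and the others lay close together (log2 difference -0.37, SE 0.24, limma adjusted p = 0.445). Mdm4, the inhibitory partner of Mdm2, stood at 21.9 and 28.4 FPKM in the KO clones of lines 6 and 4, against 23.0 and 46.5 FPKM in the WT clones of lines 6 and 4. KO and WT overlapped (log2 difference -0.38, SE 0.28, limma adjusted p = 0.445), and without the WT clone of line 4 the difference was 0.12.

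The p53 targets outside the Bcl2 family and the death receptors, 14 tested genes, mostly had KO above the median gene in line 6 and below it in line 4. Relative to the median gene 13 of the 14 were above in line 6 and 12 of 14 below in line 4, with group medians of 0.24 in line 6 and -0.15 in line 4. Of all 11932 tested genes, 5966 lay above the median gene in each line by definition. The share of all genes above it in line 6 and below it in line 4 was not counted. Cdkn1a (p21), the cyclin-dependent kinase inhibitor of the p53 arrest, stood at 8.21 and 8.13 FPKM in the KO clones of lines 6 and 4, against 6.50 and 16.4 FPKM in the WT clones of lines 6 and 4. The KO clones were alike and the WT clones lay on either side of them, so that KO was 1.26-fold of WT in line 6 and 0.495-fold in line 4 (log2 difference -0.32, SE 0.32, limma adjusted p = 0.473; 0.29 without the WT clone of line 4). Gdf15, a secreted stress factor, stood at 1.09 and 1.18 FPKM in the KO clones of lines 6 and 4, against 0.667 and 2.36 FPKM in the WT clones of lines 6 and 4. As for Cdkn1a, the KO clones lay between the WT clones. Plk2, a Polo-like kinase of the stress response, stood at 30.3 and 19.1 FPKM in the KO clones of lines 6 and 4, against 27.8 and 36.4 FPKM in the WT clones of lines 6 and 4. Its lowest and highest values were those of the KO and WT clones of line 4.

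Of the other arrest and stress genes, 6 had KO higher in line 6 and lower in line 4, and 5 had KO lower in both. Ccng1 (cyclin G1), Phlda3, an inhibitor of Akt signalling, Zmat3, an RNA-binding protein, Aen, a nuclease, Polk, a DNA polymerase that passes lesions, and Perp, a junction protein linked to p53-dependent death, had KO to WT ratios of 1.01 to 1.22 in line 6 and of 0.622 to 0.721 in line 4. Sesn1 (sestrin 1), Trp53inp1, Btg2, Rrm2b, a subunit of ribonucleotide reductase for repair, and Ei24 had KO lower in both lines, at ratios of 0.836 to 0.997 in line 6 and 0.617 to 0.702 in line 4. Ei24, which encodes a membrane protein induced by p53, had the largest difference of these targets over all libraries (38.1 and 34.0 FPKM in the KO clones of lines 6 and 4, against 45.2 and 54.9 FPKM in the WT clones of lines 6 and 4; log2 difference -0.46, SE 0.22, limma adjusted p = 0.445).

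Of the death receptors, Tnfrsf10b, the mouse receptor for TRAIL, was tested, and its KO clones, at 5.36 and 5.20 FPKM in lines 6 and 4, lay below the WT clones at 6.08 and 7.41 FPKM in lines 6 and 4. It lay at 0.029 in line 6 and 0.0066 in line 4 relative to the median gene. It was thus close to the median gene in both lines.

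The pore formers and 4 of the 6 BH3-only genes, Bbc3, Bid, Bad and Bik, had KO below WT in all libraries, as did 59.8% of all tested genes, and none passed the test. Bax stood at 117 and 87.2 FPKM in the KO clones of lines 6 and 4, against 132 and 129.8 FPKM in the WT clones of lines 6 and 4, a mean of 102 ± 21.4 FPKM in KO and 131 ± 1.74 FPKM in WT (SD, n = 2 each). The groups did not overlap and the difference was within the spread of the test (log2 difference -0.37, SE 0.21, limma adjusted p = 0.445). Bak1 stood at 14.2 FPKM in both KO clones, against 17.1 and 18.6 FPKM in the WT clones of lines 6 and 4.

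Bbc3 (Puma), a BH3-only protein and p53 target, stood at 10.4 and 10.8 FPKM in the KO clones of lines 6 and 4, against 11.1 and 16.3 FPKM in the WT clones of lines 6 and 4. The WT clone of line 4 again stood apart (log2 difference -0.32, SE 0.26, limma adjusted p = 0.445). Pmaip1 (Noxa), which binds Mcl1, stood at 36.4 and 23.2 FPKM in the KO clones of lines 6 and 4, against 36.3 and 38.3 FPKM in the WT clones of lines 6 and 4. Here the KO clone of line 4 was the low library and the other libraries were alike (log2 difference -0.35, SE 0.24, limma adjusted p = 0.445). Bcl2l11 (Bim) stood at 6.85 and 3.98 FPKM in the KO clones of lines 6 and 4, against 7.34 and 6.24 FPKM in the WT clones of lines 6 and 4. The KO clone of line 4 was again low (log2 difference -0.31, SE 0.28, limma adjusted p = 0.450), and without it the difference was 0.015. Bid, Bad and Bik, whose products bind Bcl2 family members at mitochondria or the endoplasmic reticulum, had KO below WT in all libraries. Bik was the member with the lowest KO to WT ratio in line 6, at 1.34 and 1.45 FPKM in the KO clones of lines 6 and 4, against 2.03 and 2.54 FPKM in the WT clones of lines 6 and 4 (log2 difference -0.45, SE 0.25, limma adjusted p = 0.445).

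The guardians were carried by Mcl1. Mcl1 stood at 119 and 121 FPKM in the KO clones of lines 6 and 4, against 138 and 180.1 FPKM in the WT clones of lines 6 and 4. The KO clones were alike and below both WT clones (log2 difference -0.39, SE 0.21, limma adjusted p = 0.445). Bcl2l1 stood at 8.22 and 5.39 FPKM in the KO clones of lines 6 and 4, against 7.94 and 8.81 FPKM in the WT clones of lines 6 and 4. The KO clone of line 4 was low and the rest overlapped (log2 difference -0.29, SE 0.27, limma adjusted p = 0.458), and with values centred on the library median the difference was 0.019. Mcl1 made up 93.4% and 95.5% of the summed FPKM of Bcl2, Bcl2l1 and Mcl1 in the KO clones of lines 6 and 4, against 94.5% and 95.2% in the WT clones of lines 6 and 4.

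Ratios within a library do not depend on its scale. Bax and Bak1 together, over Bcl2, Bcl2l1 and Mcl1, came to 1.03 and 0.802 in the KO clones of lines 6 and 4, against 1.02 and 0.785 in the WT clones of lines 6 and 4. The ratio of the 6 BH3-only genes to the same guardians was 0.594 and 0.452 in the KO clones of lines 6 and 4, against 0.563 and 0.468 in the WT clones of lines 6 and 4. Both ratios were higher in line 6 than in line 4 in each genotype, and KO and WT of 1 line were close. These ratios were chosen after the values were seen and have no test.

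Downstream of mitochondria, the apoptosome genes and caspases had 0 called members, beside 0.0168% of all tested genes, and 4 of 7, Casp9, Birc5, Cycs and Diablo, had KO below WT in all libraries, a share near the 59.8% of all tested genes. Apaf1, the scaffold of the apoptosome, stood at 9.75 and 11.6 FPKM in the KO clones of lines 6 and 4, against 9.68 and 16.4 FPKM in the WT clones of lines 6 and 4. The line 6 clones were alike and the WT clone of line 4 was high (log2 difference -0.23, SE 0.27, limma adjusted p = 0.525; 0.13 without the WT clone of line 4, and 0.081 on values centred on the library median). Casp9, the initiator caspase that Apaf1 binds, stood at 2.35 and 2.68 FPKM in the KO clones of lines 6 and 4, against 3.11 and 4.10 FPKM in the WT clones of lines 6 and 4. KO and WT did not overlap (log2 difference -0.38, SE 0.26, limma adjusted p = 0.445). Birc5 (survivin), an inhibitor of apoptosis protein that also acts in mitosis, stood at 23.6 and 22.5 FPKM in the KO clones of lines 6 and 4, against 29.7 and 33.1 FPKM in the WT clones of lines 6 and 4. It did not overlap either and lay at -0.13 in line 6 and -0.093 in line 4 relative to the median gene (log2 difference -0.43, SE 0.23, limma adjusted p = 0.445).

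Cytochrome c (Cycs) and Diablo, both released from mitochondria, had KO to WT ratios of 0.904 and 0.853 in line 6 and of 0.742 and 0.688 in line 4. Casp6, an effector caspase, had ratios of 0.761 in line 6 and 0.545 in line 4. Xiap, the inhibitor of caspases 9 and 3 that Diablo antagonises, had a ratio of 1.01 in line 6 and 0.609 in line 4. All but Xiap had KO lower in both lines, as most genes did.

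KO and WT stood in opposite order in the 2 founder lines for many p53 targets, though several were nearly equal in line 6. In 14 of 35 members, or 40.0%, KO was higher than WT in line 6 and lower in line 4, against 11.3% of all tested genes. The members were chosen with earlier results of these data known, so the shares in this paragraph are a description only. The 14 were Mdm2, Cdkn1a, Ccng1, Phlda3, Zmat3, Plk2, Gdf15, Aen, Polk, Perp, Pmaip1, Bcl2l1, Apaf1 and Xiap, of which Mdm2 and the 9 after it up to Perp are p53 targets outside the Bcl2 family. For Mdm2, Ccng1, Phlda3, Pmaip1, Bcl2l1, Apaf1 and Xiap the KO to WT ratio in line 6 was only 1.00 to 1.04. With 1 clone each, their order in line 6 is uncertain. The others of the 14 had ratios of 1.07 to 1.63 in line 6. In line 4 all 35 members were lower in KO, beside 97.6% of all tested genes, and 20 were at least 1.5-fold lower, or 57.1%, against 30.9% of all. In line 6, 21 members were lower in KO, or 60.0%, beside 87.7% of all, and only Bik was at least 1.5-fold lower, or 2.86%, against 3.80%. Set against the median gene, the middle member lay at 0.090 (line 6) and -0.10 (line 4). No member lay over 0.3 from the median gene in the same direction in both lines, where 1.27% of all genes lay above and 0.302% below. Each line has 1 KO and 1 WT clone, so no test of the difference between the lines' responses was possible, and clone and line cannot be told apart.

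**Figure D2:**
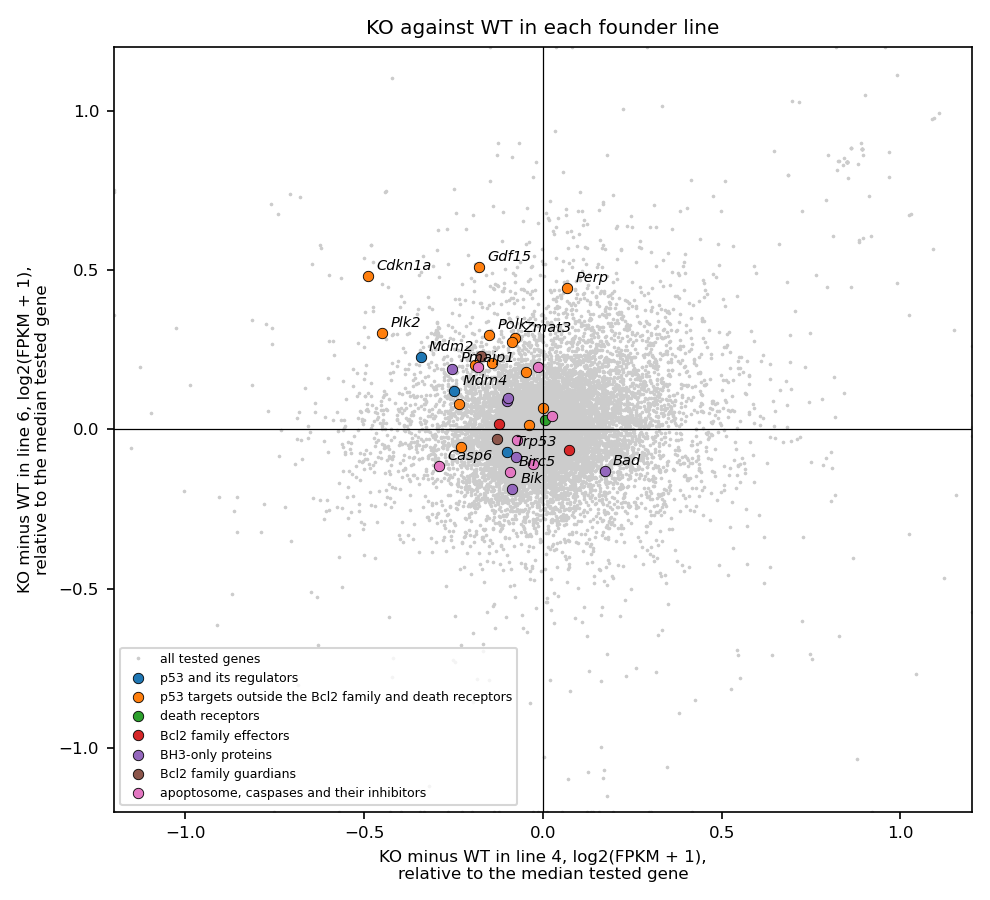
Difference KO minus WT on the log2(FPKM + 1) scale, relative to the median tested gene, in line 6 (vertical) against line 4 (horizontal), for 35 tested members coloured by role and all 11932 tested genes in grey, with genes beyond 1.2 drawn at the edge. Cdkn1a at 0.48 in line 6 and -0.49 in line 4, Plk2 at 0.30 and -0.45, and Gdf15 at 0.51 and -0.18 lie in the upper left, where most p53 targets are found.

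The feeder fibroblast markers had the same order on the values as listed, with a median KO minus WT of 0.40 in line 6 and -0.38 in line 4. Relative to the median gene they went with the 14 p53 targets outside the Bcl2 family and death receptors in line 6 but not in line 4. There those targets had medians of 0.24 (line 6) and -0.15 (line 4). For KO against WT, the 13 tested markers had a median of 0.58 (line 6) and 0.066 (line 4) relative to the median gene, of which 13 lay above the median gene in line 6 and 10 in line 4. Between the WT clones, the median for line 6 against line 4 was -0.65 for the feeder markers and -0.31 for the 14 p53 targets, and between the KO clones it was -0.051 and 0.0010. Their part in the result was not tested. The WT clone of line 4 was the highest of the 4 libraries for 27 members, or 77.1%, against 65.5% of all tested genes.

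Between the founder lines no member passed as deposited, and Perp, higher in line 6 in both genotypes, and Mdm4, lower in both, passed once the genotype was a term. The line comparison regroups the same 4 values per gene. Of 35 tested members 0 passed limma's test over all genes, against 1.98% of all tested genes, and Perp and Gdf15 had an unadjusted p under 0.05, or 5.71%, against 8.62% of all. With the genotype as a term, Perp and Mdm4 passed, or 5.71% against 9.13% of all. On values centred on the library median 12 members passed, or 34.3% against 30.2% of all, so the share was near that of all genes. By range, line 6 lay above line 4 in all libraries for Perp, Zmat3 and Bcl2l11, or 8.57% against 16.3% of all, and below for 8 members, or 22.9% against 17.4%. Only Perp was at least 1.5-fold higher in line 6 in both genotypes, or 2.86% against 3.29% of all, and 0 members were at least 1.5-fold lower in both, against 5.18%.

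Perp stood at 8.91 and 7.29 FPKM in the KO and WT clones of line 6, against 3.37 and 4.67 FPKM in the KO and WT clones of line 4. The lines did not overlap, with means of 8.10 ± 1.14 FPKM in line 6 and 4.02 ± 0.921 FPKM in line 4 (SD, n = 2 each; log2 difference 0.86, SE 0.32, limma adjusted p = 0.200; 0.00282 with the genotype as a term; 0.00752 on centred values). With 1 library left out, which leaves a line with a lone clone, the log2 difference of Perp was 0.68 to 1.05, and it passed without either line 4 clone but not without either line 6 clone (limma adjusted p = 1.00 for both). Trp53 stood at 71.1 and 85.0 FPKM in the KO and WT clones of line 6, against 48.9 and 71.9 FPKM in the KO and WT clones of line 4, so the lines overlapped narrowly (log2 difference 0.38, SE 0.36, limma adjusted p = 0.967; 0.0113 on centred values). Bcl2l11 had a log2 difference of 0.43 (SE 0.32, limma adjusted p = 0.879; 0.0108 on centred values), and Zmat3, at 4.90 and 4.50 FPKM in the KO and WT clones of line 6, against 2.54 and 4.08 FPKM in the KO and WT clones of line 4, had one of 0.43 (SE 0.30, limma adjusted p = 0.841; 0.0276 on centred values). Without the WT clone of line 4 both passed as deposited, at 0.70 and 0.69, in a fit with the KO clone as the lone library of line 4, its spread assumed to be like that of line 6, in which 7.15% of all tested genes passed and the median gene lay at 0.21.

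Mdm4 stood at 21.9 and 23.0 FPKM in the KO and WT clones of line 6, against 28.4 and 46.5 FPKM in the KO and WT clones of line 4. The lines did not overlap (log2 difference -0.67, SE 0.35, limma adjusted p = 0.586; 0.0186 with the genotype as a term; 0.00692 on centred values). The ratio of Trp53 to Mdm4 within a library was 3.24 and 3.70 in the KO and WT clones of line 6, against 1.72 and 1.55 in the KO and WT clones of line 4. Within each line the genotypes lay close to each other.

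Casp6 stood at 2.78 and 3.65 FPKM in the KO and WT clones of line 6, against 3.92 and 7.18 FPKM in the KO and WT clones of line 4 (log2 difference -0.60, SE 0.31, limma adjusted p = 0.584; 0.0206 on centred values). Polk stood at 4.39 and 4.00 FPKM in the KO and WT clones of line 6, against 5.43 and 8.72 FPKM in the KO and WT clones of line 4 (log2 difference -0.61, SE 0.32, limma adjusted p = 0.611; 0.0153 on centred values). In both genes the line 4 WT clone was the high library, and the lines did not overlap. Rrm2b, Apaf1 and Trp53inp1 were likewise lower in line 6 in all libraries, with log2 differences of -0.45, -0.47 and -0.40 (SE 0.27, 0.34 and 0.35; limma adjusted p = 0.710, 0.855 and 0.947; 0.0306, 0.0139 and 0.0301 on centred values), as were Btg2 and Gdf15. Gdf15 (log2 difference -0.54, SE 0.23, limma adjusted p = 0.383) and Cdkn1a (log2 difference -0.60, SE 0.34, limma adjusted p = 0.655) did not pass on centred values. Without the KO clone of line 4, where 13.5% of all tested genes passed and the median gene lay at -0.23, 8 members passed as deposited: Perp, with line 6 higher, and Apaf1, Casp6, Cdkn1a, Gdf15, Mdm4, Polk and Rrm2b, with line 6 lower, the last 7 at -1.07 to -0.70. That fit sets line 6 against the WT clone of line 4 alone, whose spread is assumed to be like that of line 6.

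**Figure D3:**
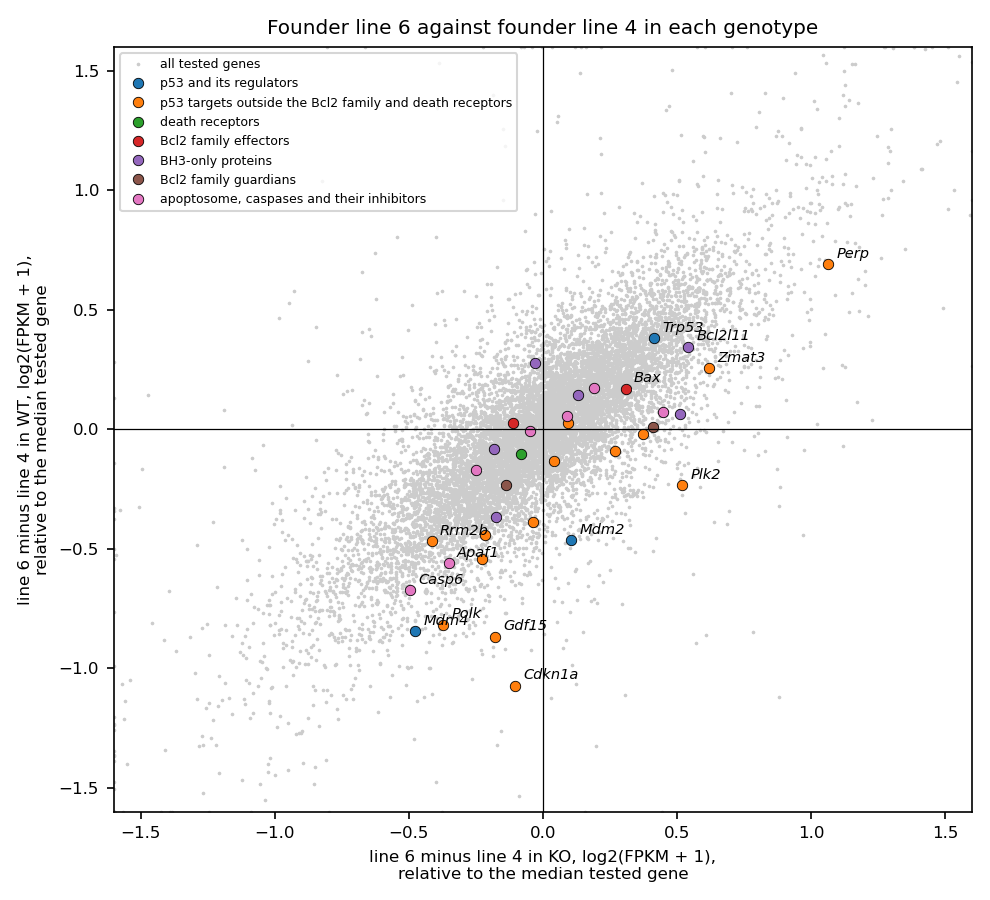
Difference line 6 minus line 4 on the log2(FPKM + 1) scale, relative to the median tested gene, in WT (vertical) against KO (horizontal), for 35 tested members coloured by role and all tested genes in grey, with genes beyond 1.6 drawn at the edge. Perp lies at the upper right in both genotypes, Mdm4, Casp6 and Polk at the lower left, and Cdkn1a is low in line 6 in WT at -1.07 while at -0.11 in KO.

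**Figure D4:**
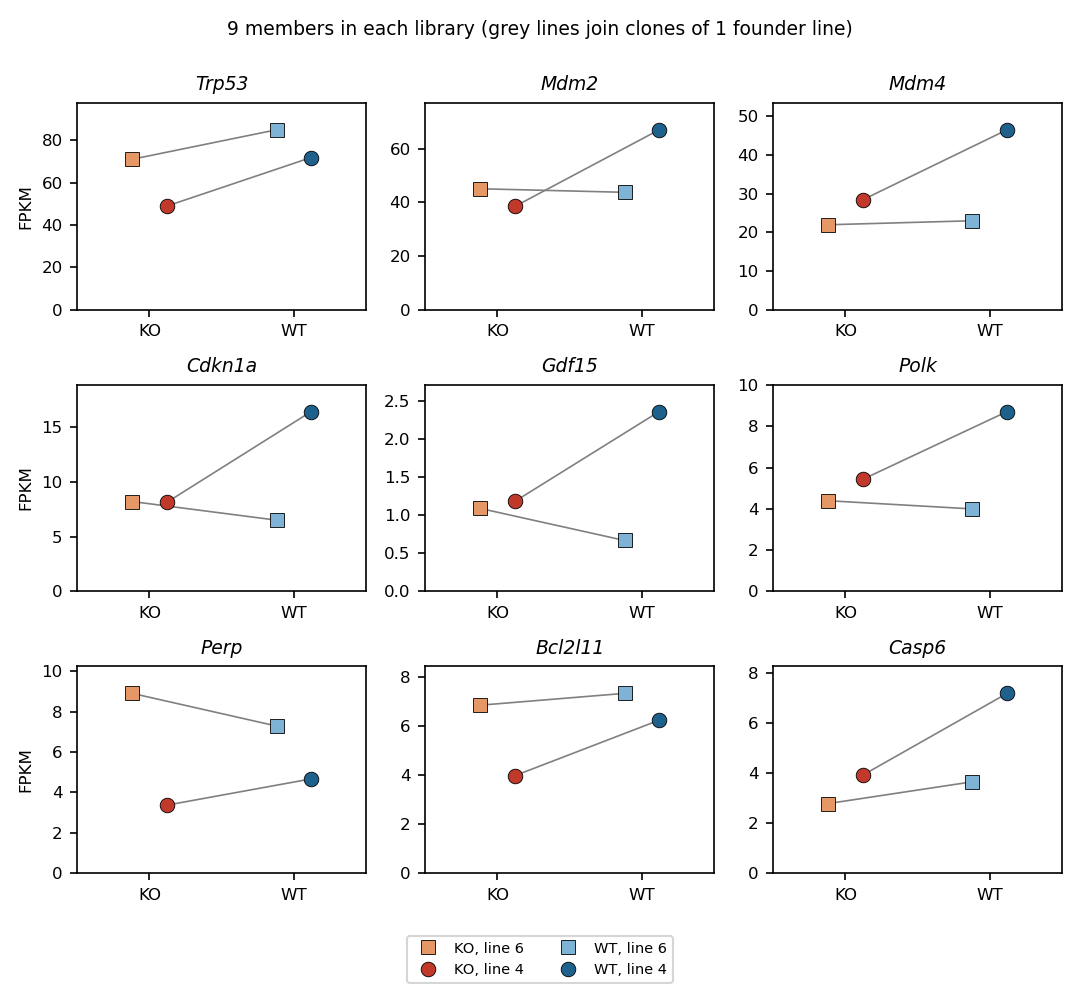
FPKM of 9 members in each library, with KO left of WT in each panel, line 6 as squares and line 4 as circles, and a grey line joining the KO and WT clone of 1 founder line. The WT clones of Cdkn1a, at 6.50 FPKM in line 6 and 16.4 FPKM in line 4, lie on either side of the KO clones at 8.21 and 8.13 FPKM, while the lines of Perp do not overlap.

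In 3 further lists of the pathway there were 0 genes called between KO and WT by limma over all genes, beside 0.0168% of all tested genes, so that counts of 0 do not set the lists apart. Of 17 tested p53 regulators 0 passed in either comparison as deposited, with no genotype term. With that term 1 passed between the lines, against 9.13% of all tested genes. On centred values 6 were higher and 1 lower in line 6, where 30.2% of all passed in either direction. Crebbp had an unadjusted p under 0.05 between the lines, as did 8.62% of all. The regulators' median log2 difference KO minus WT was -0.31. The deubiquitinase Usp7, which stabilises Mdm2 and p53, had a log2 difference of -0.37 (limma adjusted p = 0.445), the checkpoint kinase Chek2 one of -0.40 (limma adjusted p = 0.445), the coactivator Crebbp one of -0.25 (limma adjusted p = 0.523) and the kinase Hipk2 one of -0.11 (limma adjusted p = 0.719). Crebbp stood at 7.60 and 7.68 FPKM in the KO and WT clones of line 6, against 3.59 and 5.46 FPKM in the KO and WT clones of line 4 (log2 difference 0.67, limma adjusted p = 0.516). Trp63, a p53 relative, was under 0.1 FPKM in every library.

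Of 21 tested other p53 targets 0 passed in either comparison as deposited, with no genotype term. With that term 1 passed between the lines, against 9.13% of all tested genes. On centred values 4 were higher and 6 lower in line 6, where 30.2% of all passed in either direction. An unadjusted p under 0.05 was seen for 0 of them, against 5.54% of all between KO and WT and 8.62% between the lines. Their median log2 difference KO minus WT was -0.34. Relative to the median gene, 15 of 21 lay above in line 6 and 5 of 21 in line 4, with medians of 0.041 and -0.085. The receptor kinase Epha2 had a log2 difference KO minus WT of -0.51, Trp53i11 one of -0.48 and the ribosomal protein paralog Rps27l one of -0.40 (limma adjusted p = 0.445 for each). Tap1, a peptide transporter, had one of -0.16 (limma adjusted p = 0.659). Of 25 tested other apoptosis genes 0 passed between KO and WT, with a median of -0.31. Parp1, a repair enzyme cleaved by caspases, and Vdac2, a channel of the outer mitochondrial membrane, had log2 differences of -0.48 and -0.42 (limma adjusted p = 0.445 for both). Both had an unadjusted p under 0.05, as did 5.54% of all tested genes. Bnip3, a mitochondrial BH3-like protein raised by hypoxia, was the gene of these lists that passed between the lines as deposited with no genotype term. In that fit 1.98% of all tested genes passed. Bnip3 stood at 70.7 and 90.2 FPKM in the KO and WT clones of line 6, against 205.9 and 262 FPKM in the KO and WT clones of line 4. With the genotype as a term 2 of the other apoptosis genes passed as higher and 2 as lower in line 6, beside 9.13% of all tested genes. On centred values these counts were 5 and 5, beside 30.2% of all. For Bnip3 the lines lay far apart in both genotypes (log2 difference line 6 minus line 4 of -1.53, limma adjusted p = 0.00378). Ripk1, a kinase of death receptor signalling, stood at 2.89 and 3.51 FPKM in the KO and WT clones of line 6, against 1.39 and 2.09 FPKM in the KO and WT clones of line 4, a log2 difference of 0.62 (limma adjusted p = 0.373).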

How the data were processed

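Each library has 1 deposited table of FPKM that the authors had normalized to spike-ins, per the file headers and labels. The submitters' processing notes name TopHat2 2.0.9, Bowtie 0.12.8, HTSeq, edgeR, affy and the build mm9, with no role for each. The sources used here do not give how the authors used the ERCC spike-ins. Each table held 23376 entries, and 92 spike-ins and 25 entries without a partner in the other tables were left out. Values were analysed as log2(FPKM + 1) for genes averaging 1 FPKM or more, with limma 3.58.1 in R 4.3.3 (eBayes with trend, two-sided, Benjamini-Hochberg over all tested genes, threshold 0.05), and log2 differences therefore understate the change of low genes. The code was tested on simulated data. Each group has 2 clones, and p-values cover no variation beyond these clones. For each gene limma draws the spread between clones towards a trend over all tested genes. In the main fit between the lines, and as deposited with the replicate block or genotype as a term, that trend alone set the spread. Replicate numbers 1 and 2 are founder lines 4 and 6 in the clone names, so they pair the libraries (correlation of same-numbered deviations across genes 0.695). The members and lists were chosen with earlier results of these data known. Values in every library are given for the leads of each role, for members with an unadjusted p under 0.05, and for members 1.5-fold apart between lines in both genotypes or over 0.3 from the median gene in both lines. Of the other lists, the 4 genes with the lowest p are named. Other members given in full, the ratios and the promoter stretches were chosen after their values were seen. Alternatives were pseudocount 0.1, no filter, centred or quantile normalized values, robust spread, the replicate block or genotype as a term, and each library left out.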

Additional observations from a re-analysis of the deposited data

Results flagged for a closer look

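For 14 members KO and WT differed in opposite directions in the 2 founder lines, each line having 1 KO and 1 WT clone, so that the difference between the lines was not tested. The values are log2 differences KO minus WT on the log2(FPKM + 1) scale. Of the p53 regulators and arrest genes, Mdm2 had 0.042 in line 6 and -0.79 in line 4, Cdkn1a 0.29 in line 6 and -0.93 in line 4, and Ccng1 0.017 in line 6 and -0.63 in line 4. Plk2 had 0.12 in line 6 and -0.89 in line 4, and Gdf15 0.32 in line 6 and -0.62 in line 4. Phlda3 had 0.025 in line 6 and -0.59 in line 4, Zmat3 0.10 in line 6 and -0.52 in line 4, and Aen 0.090 in line 6 and -0.53 in line 4. The repair polymerase Polk had 0.11 in line 6 and -0.60 in line 4, and Perp had 0.26 in line 6 and -0.38 in line 4. Of the apoptosis genes, Pmaip1 had 0.0054 in line 6 and -0.70 in line 4, Bcl2l1 0.045 in line 6 and -0.62 in line 4, Apaf1 0.0092 in line 6 and -0.46 in line 4, and Xiap 0.010 in line 6 and -0.63 in line 4. For Pmaip1, Apaf1, Xiap, Ccng1, Phlda3, Mdm2 and Bcl2l1 the line 6 clones were nearly equal. Feeder markers and the level of the WT clone of line 4 moved beside these values, and their part was not tested.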

How the results depend on the processing

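Between KO and WT, 0 members passed under every alternative and omission run. Over all genes, 2 passed, against 0 with no filter, on centred values and on quantile normalized values, and 0 to 133 with 1 library left out (0 without either KO clone, 20 without the WT clone of line 4, 133 without that of line 6). The replicate block gave 95 genes, or 91 when a robust spread was added and 33 when values were centred first, and the block changed no member's call. Between the lines, 236 genes passed, against 0 with no filter, 3602 on centred values, 3865 on quantile normalized values, 1089 with genotype as a term, 3531 with that term on centred values, and 7 to 1607 with 1 library left out (7 without the WT clone and 21 without the KO clone of line 6, 1607 without the KO clone and 853 without the WT clone of line 4). Of the members, 0 passed between the lines, against 12 on centred values, 12 on quantile normalized values, 2 with genotype as a term, 11 with that term on centred values, and 0 to 8 with 1 library left out, where 8 came without the KO clone of line 4 and 3 without the WT clone of line 4. The members' median line 6 minus line 4 was -0.055 and ran from -0.32 without the KO clone of line 4 to 0.23 without the WT clone of line 4. Reversed between KO and WT were Bcl2l1 (0.019 on centred values with and without the block, 0.021 quantile normalized) and Apaf1 (0.081 on centred values with and without the block, 0.086 quantile normalized). With 1 library left out, Mdm4 ran from -0.87 to 0.12, Cdkn1a from -0.93 to 0.29, Apaf1 from -0.58 to 0.13 and Bcl2l11 from -0.64 to 0.015, turning positive without the WT clone of line 4, or for Bcl2l11 without the KO clone of line 4. The members' median KO minus WT ran from -0.50 to -0.22 with 1 library left out. Trp53 ran from -0.67 to -0.14, Mdm2 from -0.68 to -0.069, Bax from -0.58 to -0.16, Bbc3 from -0.57 to -0.065, Pmaip1 from -0.66 to -0.033, Bcl2l1 from -0.55 to -0.022, Mcl1 from -0.58 to -0.21 and Casp9 from -0.54 to -0.23, none of them passing. The cause was not tested. Of the other values of named members, 114 between KO and WT and 52 between the lines kept their direction and side of the threshold, and 32 between the lines newly passed. The read depth is unknown, which limits Bcl2, Fas and Casp8 most.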
